A study of Mus musculus with 12 samples.

Results

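Expression of 9 genes of the YAP/TAZ-TEAD system was followed through colon and urinary bladder of mice that carried floxed genes for YAP and TAZ, with and without a Cre recombinase that acts on them in smooth muscle. The 9 genes, found by their symbols among 54532 gene IDs, were *Yap1* and *Wwtr1* (which encodes TAZ), the 4 *Tead* genes, and *Vgll2*, *Vgll3* and *Vgll4*. All mice were male, carried floxed *Yap1* and *Wwtr1*, and received tamoxifen (1 mg per day in 5 daily injections). The Y/T KO mice also carried Myh11CreERT2, a tamoxifen-activated Cre recombinase driven by the promoter of the smooth muscle myosin gene *Myh11* and inherited with the Y chromosome, and the Ctrl mice were Cre-negative. Tissue was taken on day 7 after the first injection at a labelled age of 5 to 7 weeks, and RNA of the tissue homogenate of 1 mouse made 1 library. There were 3 Ctrl and 3 Y/T KO libraries from each tissue, 12 libraries from 9 mice, and 3 mice (Ctrl 788, Y/T KO 783 and 780) gave both tissues. The floxed exons are not given in the sources used here, and a gene-level value does not separate transcripts with and without them. Cells other than smooth muscle keep both genes in this model and were part of each homogenate.

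YAP and TAZ carry no DNA-binding domain of their own. They enter the nucleus when the Hippo kinases do not hold them in the cytoplasm, bind TEAD transcription factors on DNA, and activate genes of growth, cytoskeleton and matrix. VGLL proteins bind the same face of TEAD, and VGLL4 is best known as a competitor of YAP there. In smooth muscle, TEAD sites (the MCAT element) lie in the promoters of several contractile genes, and *Vgll2* is a gene of skeletal muscle.

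TEAD factors bind a core of CATTCC, and the reference promoters of the members were searched for it on both strands. RefSeq promoter windows (GRCm38.p6, 250 bases before to 50 after an annotated start) were on hand for 7 of the 9 members, 10 windows in all, and not for *Tead1* and *Tead4*. The core was found in 7 of the 10 windows, which belong to 5 of the 7 members (*Yap1*, *Wwtr1*, *Tead3*, *Vgll3* and *Vgll4*), and in none of the windows of *Tead2* and *Vgll2*. Both *Wwtr1* windows overlap and hold the same match, 136 and 170 bases before their starts, so it stands in the 7 for both. Of 32851 mouse windows of this length, 14.7% hold the core, and 16.6% of 27025 genes have at least 1 window that does. A match is a description of the letters and not a binding site. One window of each of these 5 genes is shown 5′ to 3′ on the strand of the gene, with matches in capitals (GGAATG is the core read on the opposite strand).
Yap1, chr9:8004547-8004846, minus strand: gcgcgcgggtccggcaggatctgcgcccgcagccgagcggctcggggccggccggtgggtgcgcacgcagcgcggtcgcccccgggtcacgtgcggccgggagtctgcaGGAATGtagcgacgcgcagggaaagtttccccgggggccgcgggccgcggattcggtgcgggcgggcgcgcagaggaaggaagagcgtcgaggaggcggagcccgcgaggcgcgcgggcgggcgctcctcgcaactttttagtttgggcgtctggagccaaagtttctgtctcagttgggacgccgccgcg
Wwtr1, chr3:57575861-57576160, minus strand: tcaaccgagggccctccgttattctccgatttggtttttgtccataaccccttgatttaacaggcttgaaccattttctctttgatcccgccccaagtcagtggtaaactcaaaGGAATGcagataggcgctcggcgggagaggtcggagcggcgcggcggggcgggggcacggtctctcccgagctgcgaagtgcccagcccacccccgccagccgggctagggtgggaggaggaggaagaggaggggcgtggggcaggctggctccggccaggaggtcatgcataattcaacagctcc
Tead3, chr17:28350551-28350850, minus strand: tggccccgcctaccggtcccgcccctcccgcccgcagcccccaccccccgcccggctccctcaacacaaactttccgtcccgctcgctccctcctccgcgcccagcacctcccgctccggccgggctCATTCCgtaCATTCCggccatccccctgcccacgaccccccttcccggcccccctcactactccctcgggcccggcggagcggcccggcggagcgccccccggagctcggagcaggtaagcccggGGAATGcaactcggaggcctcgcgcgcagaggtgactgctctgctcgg
Vgll3, chr16:65814939-65815238, plus strand: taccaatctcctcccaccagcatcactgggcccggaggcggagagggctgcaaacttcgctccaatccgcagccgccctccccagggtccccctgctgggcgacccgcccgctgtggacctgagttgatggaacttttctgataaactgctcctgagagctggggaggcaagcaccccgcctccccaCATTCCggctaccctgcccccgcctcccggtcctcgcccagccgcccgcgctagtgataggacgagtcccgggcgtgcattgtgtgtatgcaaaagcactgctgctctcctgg
Vgll4, chr6:114969154-114969453, minus strand: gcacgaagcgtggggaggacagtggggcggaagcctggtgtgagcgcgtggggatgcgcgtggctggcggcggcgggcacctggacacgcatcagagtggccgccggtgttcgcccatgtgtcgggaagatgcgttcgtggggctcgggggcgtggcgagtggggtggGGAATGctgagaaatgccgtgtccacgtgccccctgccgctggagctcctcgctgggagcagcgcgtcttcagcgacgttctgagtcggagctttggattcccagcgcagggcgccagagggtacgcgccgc
Each match is located by its first base, which lay 141 bases before the annotated start in *Yap1*, 136 in *Wwtr1*, 63 in *Vgll3* and 82 in *Vgll4*. The *Tead3* window shown held 3 matches, beginning 123 and 114 bases before and 2 bases after the start. Another *Tead3* window held a match 182 bases before its own start.

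Values are TPM, the share of a gene in all transcripts of a library scaled to a fixed total, which is divided by transcript length and can therefore be compared between genes. Each library held 2.80 to 3.94 gigabases of aligned sequence. The tissues matched their labels, with 8 smooth muscle markers summing to 3426 to 6078 TPM in the colon and 12260 to 34630 TPM in the bladder, 8 colon epithelial markers to 8574 to 10590 TPM in the colon and 201 to 263 TPM in the bladder, and 7 urothelial markers to 19.1 to 32.1 TPM in the colon and 4716 to 6242 TPM in the bladder. Of the 9 members, 8 reached 0.5 TPM in 3 or more of the fitted libraries and were tested with limma (difference of log2 values, p-values adjusted over all genes tested, called under 0.05). *Vgll2* was below that filter in every comparison and is given as levels.

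**Figure D1:**
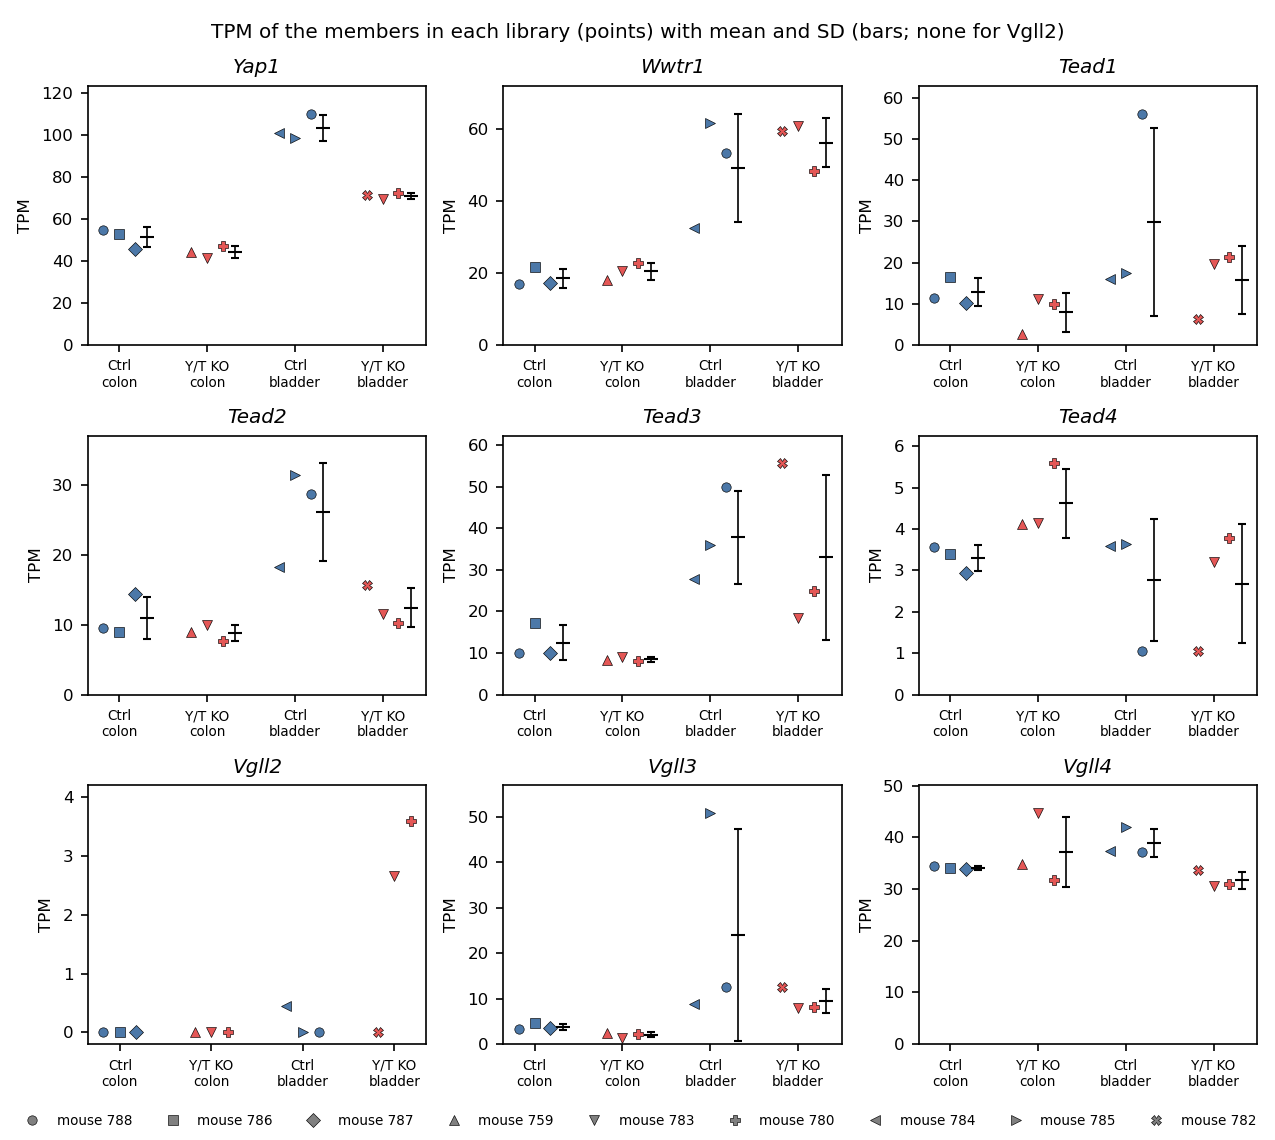
TPM of each of the 9 genes (y axis, linear) in the 12 libraries by group (x axis), 1 symbol per mouse, Ctrl in blue and Y/T KO in red. Black bars give mean and SD of 3 libraries, and none is drawn for *Vgll2*, which is listed at 0 in 9 libraries. The mean of *Yap1* is the highest in every group, and its values are 98.6 to 110 TPM in Ctrl bladder and 69.4 to 72.1 TPM in Y/T KO bladder. In Y/T KO colon 783, *Vgll4* (44.7 TPM) lies above *Yap1* (41.3 TPM).

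*Yap1* had the highest mean of the members in every group. Its mean ± SD was 51.2 ± 4.76 TPM in Ctrl colon, 44.1 ± 2.85 TPM in Y/T KO colon, 103 ± 6.01 TPM in Ctrl bladder and 70.9 ± 1.39 TPM in Y/T KO bladder (n = 3 each). In Ctrl colon, *Vgll4* (34.1 ± 0.306 TPM) and *Wwtr1* (18.5 ± 2.61 TPM) followed, each separated from the next by all library values. *Tead1* (12.8 ± 3.38 TPM), *Tead3* (12.4 ± 4.21 TPM) and *Tead2* (11.0 ± 2.99 TPM) overlapped one another, *Vgll3* (3.85 ± 0.657 TPM) and *Tead4* (3.3 ± 0.316 TPM) overlapped below them, and *Vgll2* was listed at 0. In Y/T KO colon the order began in the same way, but *Yap1* (41.3 to 47.0 TPM) and *Vgll4* (31.7 to 44.7 TPM) overlapped. *Wwtr1* (20.4 ± 2.4 TPM) stood clear, *Tead2* (8.86 ± 1.16 TPM), *Tead3* (8.49 ± 0.564 TPM), *Tead1* (7.89 ± 4.64 TPM) and *Tead4* (4.62 ± 0.837 TPM) each overlapped the next, and *Vgll3* (2.04 ± 0.534 TPM) came last before *Vgll2*, again listed at 0.

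In Ctrl bladder, only *Yap1* at the top and *Tead4* (2.77 ± 1.48 TPM) near the bottom stood clear of their neighbours. *Wwtr1* (49.1 ± 15.0 TPM), *Vgll4* (38.8 ± 2.74 TPM), *Tead3* (37.9 ± 11.2 TPM), *Tead1* (29.8 ± 22.8 TPM), *Tead2* (26.1 ± 6.97 TPM) and *Vgll3* (24.1 ± 23.3 TPM) each overlapped the next. In Y/T KO bladder, *Yap1* was again clear of *Wwtr1* (56.1 ± 6.83 TPM). *Wwtr1* overlapped *Tead3* (33.0 ± 19.9 TPM), which in turn overlapped *Vgll4* (31.7 ± 1.69 TPM). *Tead1* (15.7 ± 8.31 TPM), *Tead2* (12.4 ± 2.82 TPM) and *Vgll3* (9.55 ± 2.64 TPM) overlapped one another, and *Tead4* (2.68 ± 1.43 TPM) overlapped *Vgll2* at the bottom.

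The deleted genes were compared between genotypes first. *Yap1* (ENSMUSG00000053110, chromosome 9 of GRCm38, 7931999 to 8004596, minus strand) had 1 Ctrl colon value, 45.8 TPM in mouse 787, that lay below the highest Y/T KO colon value, 47.0 TPM in mouse 780. In the bladder all Ctrl values (101, 98.6 and 110 TPM) lay above all Y/T KO values (71.3, 69.4 and 72.1 TPM). The Y/T KO minus Ctrl difference was -0.17 on the log2 scale in the colon (95% interval -0.49 to 0.14) and -0.54 in the bladder (-0.72 to -0.36, a fold of 0.688), with limma adjusted p = 0.697 and 0.0625. The difference between these effects, -0.34, had an unadjusted p of 0.0302 and an adjusted p of 0.365 from limma. In the bladder the adjusted p of *Yap1* fell under the threshold with coverage in place of TPM (0.0454) and with all 12 libraries in 1 fit (0.0498), and was 0.0504 with the mouse as a block.

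*Wwtr1* (ENSMUSG00000027803, chromosome 3, 57455649 to 57575910, minus strand) had overlapping genotypes in both tissues. The TPM was 16.8, 21.5 and 17.2 among Ctrl colons, against 17.9, 20.5 and 22.7 among Y/T KO colons. Its bladder TPM was 32.5, 61.6 and 53.3 for Ctrl, the low value from mouse 784, against 59.3, 60.8 and 48.3 for Y/T KO. The difference was 0.18 in the colon (95% interval -0.19 to 0.55) and 0.24 in the bladder (-0.33 to 0.80), and both intervals held 0 (limma adjusted p = 0.730 and 0.678). For protein, the paper reports lost TAZ staining in colonic muscle layers and less YAP and TAZ by Western blot in Y/T KO colon. By its methods, experiments were done later than day 7 unless indicated. Without Ctrl bladder 784 the bladder difference was -0.017.

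The ratio of the 2 coactivators within a library does not depend on how libraries are scaled. *Yap1* TPM divided by *Wwtr1* TPM was 3.26, 2.46 and 2.67 in Ctrl colon of mice 788, 786 and 787, against 2.45, 2.02 and 2.07 in Y/T KO colon of mice 759, 783 and 780. In the bladder it was 3.12, 1.6 and 2.06 for Ctrl mice 784, 785 and 788, against 1.2, 1.14 and 1.49 for Y/T KO mice 782, 783 and 780. Each Y/T KO ratio thus lay below each Ctrl ratio of its tissue, with the nearest values in the colon (2.45 against 2.46). The mean ± SD went from 2.79 ± 0.415 to 2.18 ± 0.237 in the colon and from 2.26 ± 0.778 to 1.28 ± 0.187 in the bladder.

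The log2 ratio differed by -0.56 between Y/T KO and Ctrl within tissue, a fold of 0.676. An exact two-sided permutation test of genotype within tissue gave p = 0.005, the smallest its 400 arrangements allow (Benjamini-Hochberg adjusted p = 0.04 over 32 tests of ratios). Either tissue alone gave an exact p = 0.1, the smallest that 3 against 3 allows. These tests take libraries as units. When genotype was permuted over whole mice, the exact p was 0.037, the smallest of 27 arrangements, and 0.296 after adjustment over 8 ratios. Coverage in place of TPM gave the same log2 of -0.56. With 1 library left out, which lowers the number of arrangements, the difference ran from -0.67 to -0.43 and its adjusted p from 0.04 to 0.16, under 0.05 without Y/T KO colon 759, Ctrl bladder 785 or Ctrl bladder 788 and above it without any of the other 9 libraries.

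**Figure D2:**
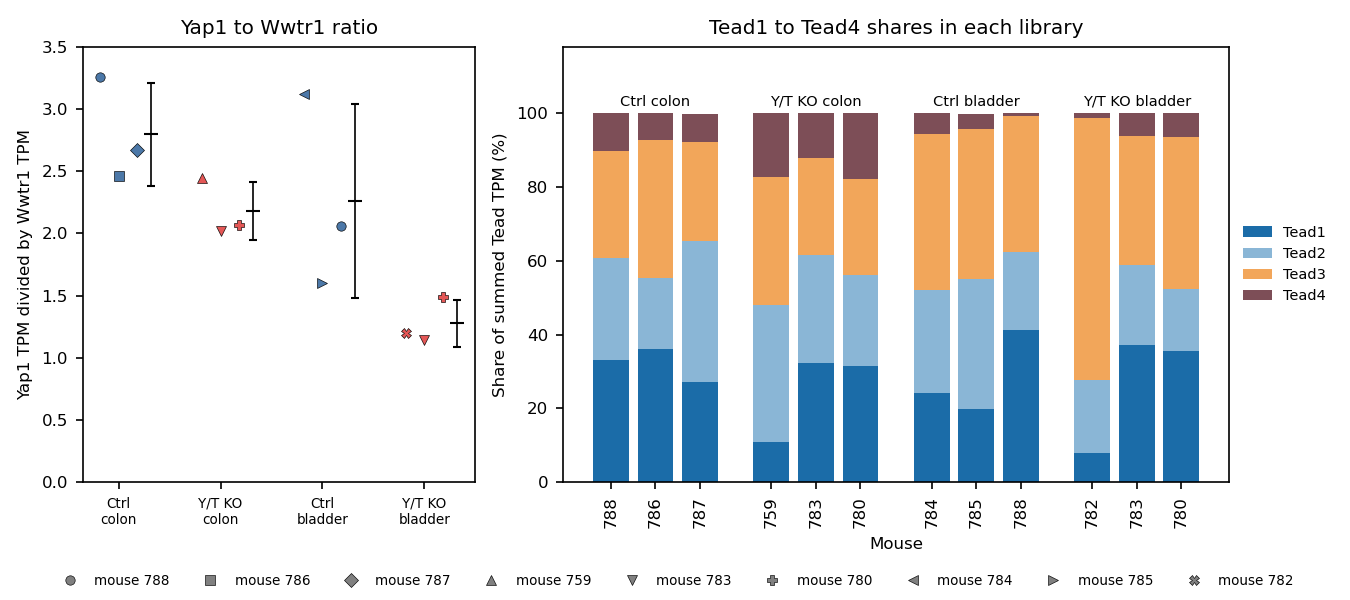
Left, *Yap1* TPM divided by *Wwtr1* TPM (y axis from 0) in each library by group, with mean and SD of 3 libraries in black; the Y/T KO ratios are 2.02 to 2.45 in colon and 1.14 to 1.49 in bladder, under the Ctrl ratios of 2.46 to 3.26 and 1.6 to 3.12. Right, the share (%) of the summed *Tead* TPM held by each of the 4 *Tead* genes in each library, where *Tead4* is 12% to 17.9% in Y/T KO colon and 7.35% to 10.3% in Ctrl colon.

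The summed TPM of smooth muscle markers was lower in the Y/T KO libraries of both tissues. The 8 markers summed to between 5536 and 6078 TPM in Ctrl colon, against 3426 to 4227 TPM after the knockout. In the bladder the sums were 25700 to 34630 TPM for Ctrl, against 12260 to 22890 TPM after the knockout, and none of the 8 was listed at 0 in a library. Y/T KO bladder 782 lay above every Ctrl bladder in *Myh11* (2720 against 2450 to 2650 TPM) and *Lmod1* (278 against 215 to 246 TPM). In *Smtn* it lay inside the Ctrl range (572 against 473 to 598 TPM), and in the remaining markers below it. All 8 had a lower estimate in each tissue, and 0 of 8 passed the test in either (4 in the colon and 5 in the bladder at an unadjusted limma p under 0.05). With DESeq2 on RNA sequencing of these tissues, the paper reports *Acta2* and *Actg2* as down-regulated in both. DESeq2 was not run here, as the files used hold no read counts. By reverse-transcription PCR, the paper reports less *Myh11* and *Acta2* in whole Y/T KO colon and in isolated muscle. By Western blot, it reports less of both proteins in Y/T KO colon. The 0 of 8 is a result of limma on TPM and does not show that the markers were unchanged. In bulk tissue, fewer cells of a type and less RNA per cell cannot be told apart from RNA values alone. For the colon, the paper reports no change in the number of smooth muscle nuclei or in muscle area. By its methods, those sections, and the colons for PCR and Western blot, were taken later than day 7 unless indicated. Of the other marker lists in the colon, all 5 macrophage and all 3 striated muscle markers tested had a higher estimate in Y/T KO (median 0.23 and 0.37). A lower one was found for 3 of 4 pancreas markers (median -4.75) and 4 of 6 nerve and glia markers (median -0.19). Fibroblast markers were higher in 4 of 5 (median 0.17), and the epithelial, urothelial and endothelial lists held both signs. In the bladder, all 7 urothelial markers had a lower estimate in Y/T KO (median -0.14, 2 of them at an unadjusted limma p under 0.05). All 3 colon epithelial and all 5 striated muscle markers tested had a higher one (median 0.35 and 1.85). Unlike in the colon, macrophage markers were lower in 4 of 5 (median -0.23). Nerve and glia markers were higher in 4 of 6 (median 0.22), the fibroblast and endothelial lists held both signs, and the 1 pancreas marker tested was higher. None of the markers in these lists was called in either tissue. The part of these markers in the values of the members was not tested.

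The implied transcript length of the 2 coactivators hardly varied. The ratio of coverage to FPKM implies an abundance-weighted mean length of a gene's transcripts, here as a percentage of its merged exons. Among genes with several annotated transcripts and an FPKM above 5, this length was checked against the annotated range, with a tolerance of 2%. It lay inside for 91.8% to 92.1% of these genes in a library, so for the rest it is no mean of annotated lengths. *Tead1*, described below, fell under its range in some libraries. For *Yap1* it was 44.6% to 45.1% in the 12 libraries and for *Wwtr1* 98.3% in each, which is 4697 bases, the longest annotated transcript. These are lengths of annotated models, so they do not show whether a floxed exon was present in the RNA.

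The TEAD genes encode the DNA-binding partners of YAP and TAZ. None of the 4 passed the test between genotypes in either tissue, where 24 of 17500 genes (0.137%) were called in the colon and 55 of 18237 (0.302%) in the bladder. With the mouse as a block the colon count of all genes was 73, and it still held 0 of the 8 members tested. At an unadjusted limma p under 0.05, where 9.73% and 14.8% of genes fell, 1 of the 8 members (*Vgll3*) stood in the colon and 3 of 8 (*Yap1*, *Tead2* and *Vgll4*) in the bladder. Genotypes did not overlap for 3 of 8 members in the colon (*Tead3* and *Vgll3* lower, *Tead4* higher in Y/T KO) and for 3 of 8 in the bladder (*Yap1*, *Tead2* and *Vgll4*, all lower), beside 16.1% and 22% of all genes tested.

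*Tead2* (ENSMUSG00000030796, chromosome 7, 45215753 to 45233644, plus strand), is the TEAD gene best known from early embryos. Its TPM was 18.2, 31.4 and 28.7 among Ctrl bladders, against 15.6, 11.5 and 10.2 among Y/T KO bladders, with no overlap. The difference was -1.05 on the log2 scale (95% interval -1.61 to -0.49, a fold of 0.483), with an unadjusted limma p of 0.00341 and an adjusted p of 0.149. Each library left out in turn kept it between -1.27 and -0.89. Colon TPM was 9.51, 8.96 and 14.4 for Ctrl, against 8.89, 10.0 and 7.68 for Y/T KO, which overlap. The colon difference of -0.24 (95% interval -0.82 to 0.34) turned to 0.083 with coverage and to 0.0087 without Ctrl colon 787. The effects in bladder and colon differed by -0.79, with an unadjusted limma p of 0.0519 and an adjusted p of 0.424.

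*Tead3* (ENSMUSG00000002249, chromosome 17, 28331671 to 28350817, minus strand) had a colon TPM of 10.0, 17.3 and 10.0 in Ctrl mice, against 8.24, 9.14 and 8.1 in Y/T KO mice, so that every Y/T KO value was lower. Its colon difference was -0.46 (95% interval -0.96 to 0.03, limma adjusted p = 0.544). In the bladder the highest of all values, 55.6 TPM, came from Y/T KO mouse 782, while Y/T KO mice 783 and 780 gave 18.5 and 24.8 TPM against 27.8, 35.9 and 49.9 TPM for the controls. The bladder difference was -0.32 (95% interval -1.28 to 0.64), -0.75 without mouse 782, -0.12 without Ctrl 788, -0.19 without Y/T KO 780, -0.012 without Y/T KO 783, and 0.54 when mouse 782 stood alone for Y/T KO.

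*Tead1* (ENSMUSG00000055320, chromosome 7, 112679318 to 112906807, plus strand), the TEAD gene most tied to muscle genes, varied widely between mice of a group. Its colon TPM was 11.5, 16.6 and 10.2 for Ctrl, against 2.58, 11.2 and 9.88 for Y/T KO, the low value from mouse 759. Its bladder TPM was 15.9, 17.4 and 56.1 for Ctrl, the high value from mouse 788, against 6.2, 19.6 and 21.4 for Y/T KO. The differences were -0.87 in the colon (95% interval -2.13 to 0.39) and -0.85 in the bladder (-2.48 to 0.78), with limma adjusted p = 0.629 and 0.595. They shrank to -0.21 without Y/T KO colon 759, to -0.29 without Ctrl bladder 788 and to -0.26 without Y/T KO bladder 782.

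The deposited coverage showed a different order for *Tead1*. Per gigabase of aligned sequence, its mean coverage was 0.676, 0.840 and 0.606 in Ctrl colon and 0.0207, 0.613 and 0.563 in Y/T KO colon. Bladder coverage was 0.347, 0.341 and 2.69 in Ctrl and 0.199, 0.189 and 0.165 in Y/T KO, with no overlap, although the TPM of the same libraries overlapped. The difference on this scale was -1.49 in the colon and -1.78 in the bladder (limma adjusted p = 0.641 and 0.351).

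The implied transcript length of *Tead1*, by which TPM and coverage differ, changed from library to library. It was 10.8% to 11.7% of the merged exons (13570 bases) in Ctrl colon, 10.7% and 10.8% in Y/T KO colon 783 and 780, but 1.57% in Y/T KO colon 759. Among the bladders it was 10.8% in Ctrl 788, 4.79% and 4.42% in Ctrl 784 and 785, and 7.2%, 2.11% and 1.69% in Y/T KO 782, 783 and 780. TPM is divided by this length, so a short one raises TPM at the same coverage. The lengths of 213, 229 and 286 bases in Y/T KO colon 759 and Y/T KO bladder 780 and 783 lie under the shortest annotated *Tead1* transcript, 546 bases. The *Tead1* value of colon 759 rested on 1.1 kilobases of aligned sequence, and that of Ctrl bladder 788 on 131.

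**Figure D3:**
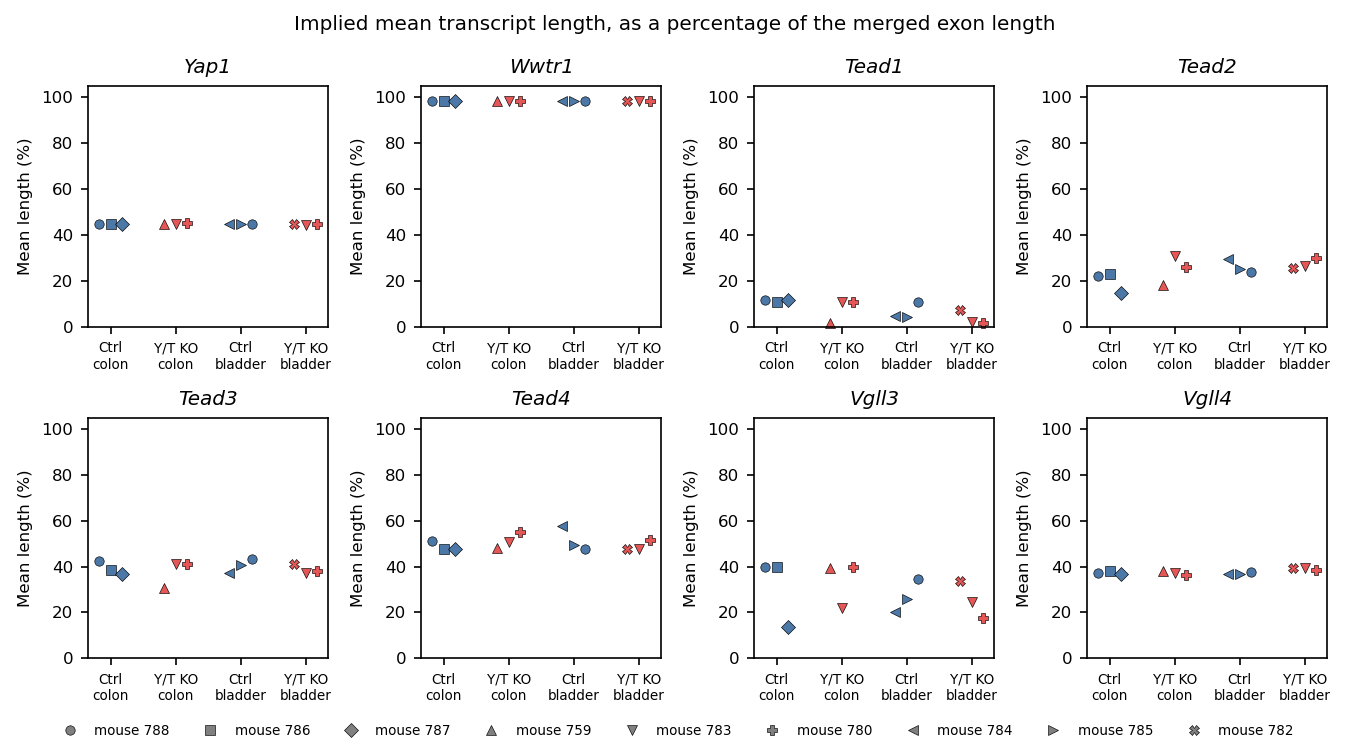
Implied abundance-weighted mean transcript length of 8 genes in each library by group, as a percentage of the merged exon length (y axis, 0 to 100%). Each mouse has 1 symbol, with Ctrl in blue and Y/T KO in red. *Yap1* (44.6% to 45.1%) and *Wwtr1* (98.3%) are flat, whereas *Tead1* runs from 1.57% to 11.7% and *Vgll3* from 13.8% to 39.8%.

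*Tead4* (ENSMUSG00000030353, chromosome 6, 128224288 to 128300823, minus strand), known from the first lineage choice of the embryo, had the lowest mean of the TEAD genes in every group. Its colon TPM was 3.56, 3.4 and 2.95 for Ctrl, against 4.13, 4.15 and 5.59 for Y/T KO, each Y/T KO value being higher. The colon difference was 0.50 (95% interval -0.03 to 1.03, limma adjusted p = 0.540). In the bladder, Ctrl mouse 788 and Y/T KO mouse 782 each had 1.06 TPM, and the other 4 libraries had 3.21 to 3.78 TPM. The bladder difference of -0.04 (95% interval -1.63 to 1.56) ran from -0.62 to 0.53 as single libraries were left out.

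As a share of the 4 *Tead* genes, *Tead4* was 10.3%, 7.35% and 7.84% in Ctrl colon and 17.3%, 12% and 17.9% in Y/T KO colon, again with no overlap. These shares reuse the *Tead4* TPM above and are no second measure of it. The 17.3% is from mouse 759, whose *Tead1* value in the sum, 2.58 TPM, rested on 1.1 kilobases of aligned sequence. The fold of 1.84 had an exact permutation p of 0.1, the smallest possible, and a Benjamini-Hochberg adjusted p of 0.28. *Yap1* plus *Wwtr1* divided by the 4 *Tead* genes was 1.79 ± 0.253 in Ctrl colon, 2.21 ± 0.403 in Y/T KO colon, 1.69 ± 0.434 in Ctrl bladder and 2.04 ± 0.403 in Y/T KO bladder. Genotype within tissue gave an exact permutation p of 0.105 (adjusted 0.28). The highest ratio, 2.6, also came from Y/T KO colon 759.

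The VGLL genes encode cofactors that share the TEAD surface with YAP and TAZ. *Vgll4* (ENSMUSG00000030315, chromosome 6, 114860628 to 114969994, minus strand) was the steadiest member over the 12 libraries, from 30.5 to 44.7 TPM. Its bladder TPM was 37.3, 42.0 and 37.2 for Ctrl, against 33.6, 30.5 and 30.9 for Y/T KO, without overlap. The bladder difference was -0.29 (95% interval -0.52 to -0.06), with an unadjusted limma p of 0.0197 and an adjusted p of 0.249. Its colon TPM was 34.4, 34.0 and 33.8 for Ctrl, against 34.9, 44.7 and 31.7 for Y/T KO, which overlap (difference 0.14, 95% interval -0.24 to 0.52). The difference between the effects in bladder and colon of -0.41 had an unadjusted limma p of 0.0470 and an adjusted p of 0.413.

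*Vgll3* (ENSMUSG00000091243, chromosome 16, 65815257 to 65866368, plus strand) had the smallest unadjusted p in the colon, 0.0141 in limma. Its colon TPM was 3.33, 4.59 and 3.64 for Ctrl, against 2.4, 1.43 and 2.3 for Y/T KO, with no overlap. The difference of -0.87 (95% interval -1.51 to -0.23, a fold of 0.548) had an adjusted limma p of 0.433 and was -0.63 with coverage, where the groups overlapped. Its bladder TPM was 8.73, 50.9 and 12.6 for Ctrl, against 12.6, 7.89 and 8.17 for Y/T KO. The bladder difference of -0.92 (95% interval -2.49 to 0.64) rested on Ctrl mouse 785 and was -0.16 without it.

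*Vgll2* (ENSMUSG00000049641, chromosome 10, 52022502 to 52028471, plus strand) was listed at 0 in the 6 colon libraries and in bladder libraries 785 and 788 (Ctrl) and 782 (Y/T KO). It was 0.453 TPM in Ctrl bladder 784 and 2.66 and 3.6 TPM in Y/T KO bladder 783 and 780. The same 3 libraries had the highest sums of striated muscle markers. *Myh1*, a fast skeletal myosin, was 16.7, 122 and 135 TPM there and at most 0.05 TPM in the other 9 libraries. *Myog*, a regulator of skeletal muscle differentiation, was 0.124, 1.96 and 0.528 TPM there and listed at 0 in the other 9. *Myh2*, another marker of the list, was 2.81, 31.4 and 50.7 TPM there, but also 1.75 TPM in Ctrl bladder 785, where *Vgll2* was listed at 0. The 6 striated markers summed to 1782, 4058 and 4944 TPM in these 3 bladders, to 1262 to 1501 TPM in the other 3 and to at most 28.6 TPM in the colon. *Acta1* held most of the sum in Ctrl bladder 784 (1330 TPM) and in the other 3 (915 to 1140 TPM). The part of striated muscle in the *Vgll2* values was not tested. *Vgll1*, the remaining gene of the family, was listed at 0 in the colon and ranged from 0.342 to 1.52 TPM in the bladder.

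**Figure D4:**
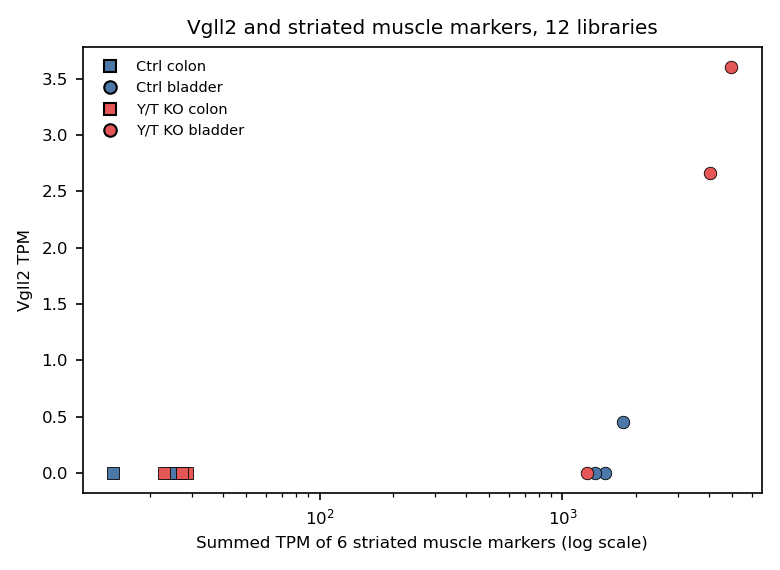
*Vgll2* TPM (y axis) against the summed TPM of 6 striated muscle markers (x axis, log scale) in the 12 libraries, squares for colon and circles for bladder, Ctrl in blue and Y/T KO in red. The 3 libraries with *Vgll2* above 0 (0.453, 2.66 and 3.6 TPM) are those with the highest marker sums (1782, 4058 and 4944 TPM).

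Leaving out both Y/T KO bladders with the highest striated sum, mice 783 and 780, leaves 1 Y/T KO bladder, whose spread is then assumed to be that of the Ctrl bladders. The *Yap1* difference was then -0.58, that of *Tead2* -0.75 and that of *Vgll3* -0.54, with limma adjusted p = 0.397, 0.691 and 0.924. The *Tead1* difference moved from -0.85 to -2.04 and that of *Tead4* from -0.04 to -1.17, with limma adjusted p = 0.665 and 0.789.

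The last comparison set the tissues against each other within a genotype. In Ctrl mice, 5 of the 8 members tested were higher in bladder than in colon and 0 were lower, beside 50.4% of 19773 genes called in either direction and 25.3% called higher. In Y/T KO mice, 4 were higher and 1 lower, beside 51.3% called in either direction, 25.6% higher and 25.8% lower. Mouse 788 gave libraries to both sides in Ctrl, as did mice 783 and 780 in Y/T KO. In TPM rescaled over the 12 libraries, the tissues did not overlap for 6 of the 8 members in each genotype, beside 58.6% (Ctrl) and 59.2% (Y/T KO) of genes. Which members separated depended on the scale. With TPM as deposited, *Tead4* overlapped and *Vgll4* separated in Ctrl, and *Vgll4* overlapped and *Tead2* separated in Y/T KO. With coverage per aligned gigabase, 4 members separated in Ctrl, and in Y/T KO 4 were higher and 2 lower in bladder. Members called were thus 62.5% of those tested in each genotype, near the share of all genes. None of the 8 passed the test of the difference between the effects in bladder and colon, where 12 of 19773 genes (0.0607%) did, and 2 (*Yap1* and *Vgll4*) had an unadjusted limma p under 0.05, beside 11.9% of genes.

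Both coactivators were higher in bladder in each genotype. *Yap1* was higher by a log2 of 0.75 (SE 0.10) in Ctrl and 0.41 (SE 0.10) in Y/T KO, with limma adjusted p = 5.79e-05 and 0.00404. *Wwtr1* was higher by 1.10 (SE 0.20) and 1.18 (SE 0.20), with limma adjusted p = 0.000842 and 0.000502. *Tead3* was higher by 1.35 (SE 0.34) and 1.51 (SE 0.34), and *Vgll3* by 1.93 (SE 0.51) and 1.90 (SE 0.51), with limma adjusted p between 0.00288 and 0.00908. With coverage in place of TPM, *Vgll3* missed the threshold in both genotypes (adjusted p = 0.0597 and 0.121).

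*Tead2* was higher in Ctrl bladder, by 0.98 (SE 0.26, limma adjusted p = 0.00744), and gave 0.19 (95% interval -0.37 to 0.76) in Y/T KO. *Vgll4* was lower in Y/T KO bladder than in Y/T KO colon, with a log2 difference of -0.49 (SE 0.13, limma adjusted p = 0.00851) and gave -0.08 (95% interval -0.36 to 0.21) in Ctrl. That call depends on scaling. With TPM as deposited or size factors set within each tissue, the median of all genes moved from -0.01 to between 0.24 and 0.26, and *Vgll4* was -0.21 and -0.23 in Y/T KO (adjusted p = 0.196 and 0.153) and 0.18 and 0.20 in Ctrl. *Tead1* (0.73 and 0.78) and *Tead4* (-0.68 and -1.19) passed in neither genotype, although *Tead4* passed in Y/T KO when Ctrl bladder 788 or Y/T KO bladder 780 was left out of the 12 libraries (limma adjusted p = 0.0296 and 0.0495).

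**Figure D5:**
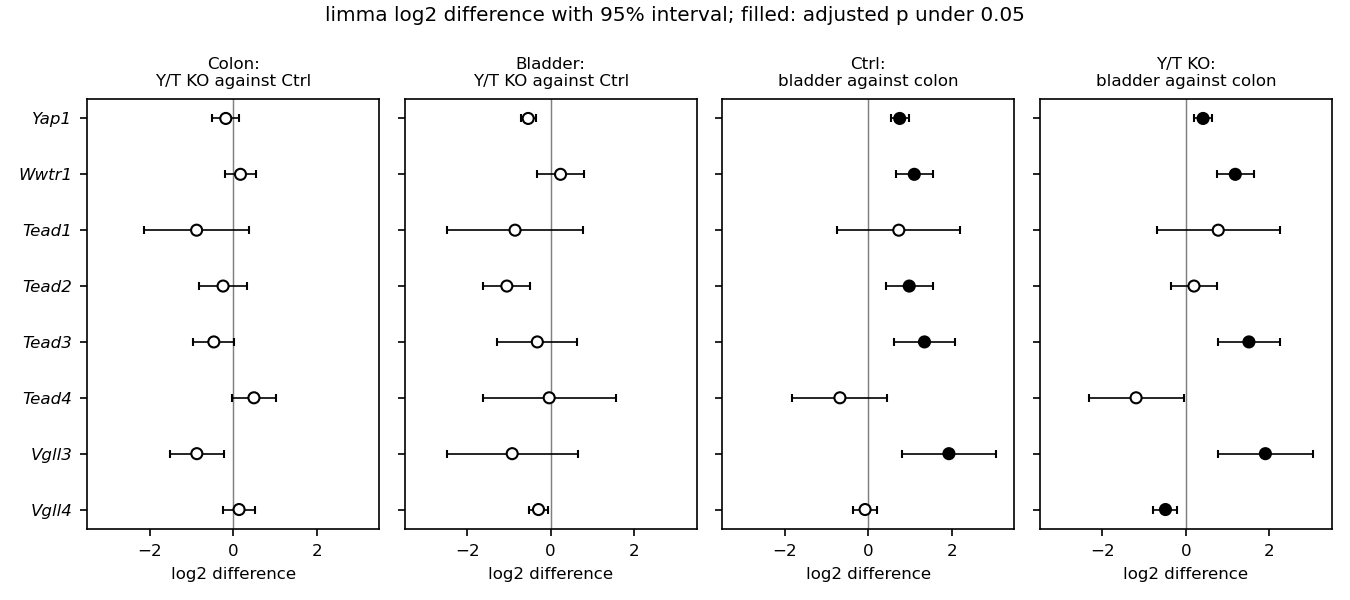
Difference on the log2 scale (x axis) of the 8 tested genes (y axis) in 4 limma comparisons, Y/T KO minus Ctrl in colon and bladder and bladder minus colon in Ctrl and Y/T KO, with 95% intervals. Filled points have an adjusted p under 0.05, which are 0, 0, 5 and 5 of the 8 genes from left to right.

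Ratios between members, which no scaling of libraries can move, were also compared between tissues. *Vgll4* divided by *Yap1* plus *Wwtr1* was 0.455 to 0.724 over the 6 colon libraries and 0.228 to 0.279 over the 6 bladder libraries, a fold of 0.477. *Vgll3* divided by *Vgll4* was 0.113 ± 0.0197 in Ctrl colon and 0.0578 ± 0.0224 in Y/T KO colon, against 0.595 ± 0.538 in Ctrl bladder and 0.3 ± 0.0658 in Y/T KO bladder, a fold of 4.72. The share of *Tead4* among the *Tead* genes was 7.35% to 17.9% in colon and 0.777% to 6.28% in bladder, a fold of 0.273. Each gave an exact permutation p of 0.005 for tissue within genotype, the smallest possible, and an adjusted p of 0.04. These tests too take libraries as units, although 3 mice gave both tissues. With 1 library left out the adjusted p of each remained 0.04 without Y/T KO colon 759 or any 1 of the Ctrl bladders and was 0.0533 to 0.096 without any of the other 8. With coverage in place of TPM the *Vgll3* to *Vgll4* ratio missed the threshold (log2 of 1.96, adjusted p = 0.0533). The largest TEAD share by TPM was that of *Tead3* in both bladder groups (39.9% ± 2.91 in Ctrl and 49.0% ± 19.2 in Y/T KO), although *Tead1* held more than *Tead3* in Ctrl 788 (41.3% against 36.8%) and Y/T KO 783 (37.1% against 35.0%). In Y/T KO 783 the *Tead1* value rests on the implied length of 286 bases and a coverage of 0.529, where that of *Tead3* was 8.76.

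The other genes of the pathway were followed by list. Of 25 upstream regulators (the kinases *Stk3*, *Stk4*, *Lats1* and *Lats2*, their adaptors, and membrane and junction proteins that act on them), 24 were tested in each tissue and 0 passed between genotypes. *Lats1* was not tested, as it did not pass the filter on low values. Their median difference was -0.11 in the colon and -0.07 in the bladder, where that of all genes tested was 0.01 and 0.00. The largest colon estimates were those of *Lats2*, 1 of the kinases that phosphorylate YAP and TAZ (-0.76, SE 0.18, limma adjusted p = 0.280), *Amotl2*, an angiomotin (-0.68), and *Fat4*, a protocadherin (-0.66). The largest in the bladder were *Amotl2* (-1.19), the LIM protein gene *Limd1* (-0.77) and *Amot* (0.61).

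Of 22 classic targets of YAP/TAZ-TEAD, all were tested and 18 had a lower estimate in Y/T KO colon and 15 in Y/T KO bladder. The median difference was -0.24 and -0.21. One passed, *Ankrd1*, a muscle ankyrin repeat protein gene and a common readout of YAP activity, with -3.58 in the colon (SE 0.43, limma adjusted p = 0.0381). In the bladder *Ankrd1* gave -5.80 (SE 1.19, limma adjusted p = 0.141), and 0 of the 22 passed. The next largest bladder estimates were those of *Amotl2* (-1.19, SE 0.78) and *Cyr61* (-0.85, SE 1.69). Estimates were higher in Y/T KO for 4 of the 22 targets in the colon and 7 in the bladder. Among these were *Cyr61* in the colon (0.74, SE 0.32) and *Nt5e* in the bladder (0.71, SE 0.19). *Ctgf* gave -0.14 in the colon (SE 0.24) and 0.03 in the bladder (SE 1.26), where so wide an error does not show that it was unchanged. *Amotl2*, *Lats2*, *Ptpn14* and *Ajuba* are on both lists.

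Between tissues more genes of each list were called higher than lower in bladder. In Ctrl, 12 of 24 upstream genes were called higher and 4 lower, with a median of 0.41, and 11 of 22 targets higher and 5 lower, with a median of 0.97, beside 25.3% of all genes called higher, 25.1% called lower and a median of -0.01. In Y/T KO the counts were 12 and 2, with a median of 0.43, and 11 and 3, with a median of 0.67, beside 25.6% and 25.8% of all genes. Markers of smooth muscle (8 of 8), fibroblasts (5 of 5) and endothelium (5 of 5) were called higher in bladder in each genotype, and those of macrophages in Ctrl (5 of 5) and in part in Y/T KO (1 of 5). So were those of urothelium (7 of 7) and of nerve and glia (4 of 6) in each genotype, and of striated muscle (3 of 5 in Ctrl, 5 of 5 in Y/T KO). Markers of colon epithelium (7 of 7 in each genotype) and pancreas (4 of 4 in Ctrl, 2 of 4 in Y/T KO) were called lower. The part of all these cell types in the values of both lists and of the members was not tested. *Ptpn14*, a phosphatase that binds YAP, was higher by 1.95 in Ctrl and 2.12 in Y/T KO, and *Frmd6*, a FERM-domain regulator, by 1.65 and 1.76. Among the targets *Myof*, a membrane repair gene, was higher by 2.42 and 2.64, and *Nuak2*, a kinase gene, was lower, with differences of -2.69 and -2.37. Each of these 8 differences passed the limma test.

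Genes of like pattern were sought among 12770 genes with a mean of at least 5 TPM, by the mean absolute distance of log2 values centred on each gene's mean over the 12 libraries. Nearest to *Yap1* were *Hoxa10* (0.086 log2 units), *Ski* (0.121) and *Nisch* (0.127), where *Yap1* itself deviated from its own mean by 0.294 on average. Nearest to *Wwtr1* were *Ggta1* (0.149), *Fstl1* (0.152) and *Fkbp7* (0.155), beside a deviation of 0.579. The nearest to *Tead2* was *Rab3ip* (0.159, beside 0.477), to *Tead3* *Ptbp2* (0.213, beside 0.723) and to *Vgll4* *Atxn7l3* (0.0816, beside 0.166). The nearest to *Tead1* was *Kmt2a* (0.255, beside 0.646), to *Tead4* *Rell1* (0.292, beside 0.537) and to *Vgll3* *Itgb3* (0.314, beside 0.959). The libraries of both tissues enter this distance, so it holds the tissue difference as well as the spread between mice.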

How the data were processed

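RNA of colon and bladder homogenates was sequenced as stranded, poly(A)-selected libraries, and the submitters' processing notes name bcl2fastq, FastQC, HISAT2, StringTie and DESeq2 on GRCm38, without versions. The authors deposited for each library the TPM (transcripts of a gene per fixed total of transcripts), the FPKM (fragments per kilobase and depth) and the coverage (mean reads per base) that StringTie gave. Rows of a gene ID were summed, leaving 54532 genes, and coordinates matched GENCODE M21 for 98.3% of IDs found there. The files used hold no read counts, so the counting error of a value is unknown. Aligned gigabases per library and mean transcript lengths were taken from coverage divided by FPKM.

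TPM was divided by median-of-ratios size factors, and log2(TPM + 0.1) was fitted with limma 3.58.1 in R 4.3.3 (trend and robust options) for genes that reached 0.5 TPM in 3 or more fitted libraries. Fold changes are on this scale, which understates changes of low genes. Tissues were fitted apart for genotype, and all 12 libraries together for tissue and for the difference of effects. Adjusted p-values are Benjamini-Hochberg over all genes tested, called under 0.05, and tests are two-sided. Ratios of members were tested by exact permutation. Mice that gave both tissues pair libraries by animal, and the correlations of their deviations were -0.01 (788), 0.07 (783) and 0.04 (780).

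Named are all 9 members, *Vgll1*, list genes that were called or had the 3 largest differences (between tissues, examples), and the 3 genes nearest in pattern or the first of them. *Myh1*, *Myog*, *Myh2*, *Acta1*, *Ctgf*, *Nt5e*, *Myh11*, *Lmod1* and *Smtn* were named after their values were seen. *Acta2* and *Actg2* were named because the paper reports them. Members and lists were chosen with earlier results of these data known. Figures were drawn with matplotlib 3.10.9 in Python 3.11.15.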

Additional observations from a re-analysis of the deposited data

How the results depend on the processing

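Counts of called genes moved more than the members did. In the colon 24 genes were called, 6 without the filter on low values, 69 with all 12 libraries in 1 fit, 73 with the mouse as a replicate block, and 5 to 63 with a library left out. In the bladder 55 became 18 without both Y/T KO libraries of mice 783 and 780 (an alternative chosen after seeing the data, as was coverage) and 11 to 51 with 1 library left out. Members called in the bladder rose from 0 to 1, *Yap1*, with coverage in place of TPM and with all 12 libraries in 1 fit. For the difference of effects, 12 genes became 19 with a pseudocount of 1 TPM, 22 without trend and robust, and 8 to 31 with a library left out. Of the ratio differences, 4 passed and 0 to 4 did so with a library left out, where fewer arrangements exist. With coverage the count was again 4, but *Vgll3* to *Vgll4* between tissues was lost (adjusted p = 0.0533) and the *Tead3* share between tissues gained (0.04, from 0.08). With the mouse as a block in limma (consensus correlation 0.0514) the calls of the 8 members were the same in all 5 comparisons. Permuting genotype over whole mice ended the call of the *Yap1* to *Wwtr1* ratio (adjusted p = 0.296).

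In every result named here that turned sign, the difference had not passed the test. With coverage, *Tead2* in colon was 0.083, *Tead1* between tissues -0.13 in Ctrl and -0.39 in Y/T KO, the *Tead1* difference of effects -0.26 and the *Tead3* share between genotypes -0.067. *Vgll4* between Ctrl tissues was 0.18 with TPM as deposited and 0.20 with size factors within tissue, *Tead1* in the difference of effects was -0.0091 with a pseudocount of 1 TPM, and *Tead3* in bladder 0.54 without mice 783 and 780. With a library left out, colon *Tead2* ran from -0.43 to 0.0087, bladder *Wwtr1* from -0.017 to 0.43 and *Tead4* from -0.62 to 0.53. The differences of effects ran from -0.17 to 0.27 (*Wwtr1*), -0.61 to 0.63 (*Tead1*), -0.27 to 0.46 (*Tead3*), -1.09 to 0.046 (*Tead4*) and -0.52 to 0.73 (*Vgll3*). The ratio of *Yap1* plus *Wwtr1* to *Tead* genes between tissues ran from -0.19 to 0.0029, the *Tead1* share between tissues from -0.40 to 0.23 and the *Tead3* share between genotypes from -0.082 to 0.17. The cause was not tested. Among tested members, depth limits *Tead1* and *Tead4* most, with as few as 1.1 and 2.88 kilobases of aligned sequence in a library.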

Other observations

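Ctrl bladder 788 and Y/T KO bladder 782 were alike in several members. Both had 1.06 TPM of *Tead4*, where the other 4 bladders had 3.21 to 3.78 TPM, both had the highest *Tead3* of their genotype (49.9 and 55.6 TPM), and both had 12.6 TPM of *Vgll3*. They differed most in *Tead1*, at 56.1 and 6.20 TPM. Their urothelial marker sums were 5997 and 5882 TPM, inside the range of 4716 to 6242 TPM of the bladders, and their striated sums were the lowest of the bladders at 1361 and 1262 TPM. This pair was noticed after the values were seen, and no test was made of it.

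*Tead2* lies 1.52 Mb from *Saa1* on chromosome 7. Within 5 Mb of *Saa1*, limma called 5 of 148 genes in the bladder, 2 of them lower after the knockout, and 3 of 143 in the colon, with 0 lower, beside 0.302% and 0.137% of all genes tested. *Tead2* itself was not called. The window was centred on *Saa1*, which the paper reports as strongly induced in Y/T KO colon. It was thus placed by a result of these same data, and its counts are no test of the region. The part of the region in the *Tead2* values was not tested.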
